A study of Mus musculus with 3 samples.

Results

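The Notch pathway lets a cell read the surface of its neighbour. Receptors of the Notch family bind Delta-like or Jagged ligands on the adjacent cell, are cleaved by ADAM proteases and γ-secretase, and release an intracellular domain that enters the nucleus and joins the DNA-binding protein RBPJ to switch on Hes and Hey repressor genes. In blood vessels the pathway is best known for arterial identity and for restraining sprouting, and in lymphoid tissue Delta-like ligands on stromal cells instruct lymphocytes. The genes described here are the 4 mouse receptors (Notch1, Notch2, Notch3 and Notch4), the ligands Dll1, Dll4, Jag1 and Jag2, the glycosyltransferase Mfng, which modifies the receptors' sugars, and the target gene Hey1. They were picked by gene name, with all of their 14 probes, and make up 10 of the 28080 genes on the array.

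RNA came from stromal cells of the mesenteric lymph node, the node that drains the gut, of wild-type C57BL/6NCrl mice. After collagenase digestion and magnetic removal of CD45-bearing blood cells, cells without CD45 and CD24 were sorted into lymphatic endothelial cells (LEC, gp38+ CD31+), blood endothelial cells (BEC, gp38- CD31+) and fibroblastic reticular cells (FRC, gp38+ CD31-), the fibroblasts that build the node's scaffold. Each population was hybridised to 1 single-colour Agilent array, and all 3 arrays lay on 1 slide. The labels give a mean sort purity of 88% ± 1.5 over the subsets and state neither an age nor the number of mice or sorts behind each RNA.

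With 1 array per population no difference has a replicate check, and no p-value is given. Levels are log2 of the processed spot intensity minus the 75th percentile of the probes on that array, so 0 marks that percentile, and values are compared between arrays for the same probe only. Those percentiles were intensities of 268 on the LEC, 361 on the BEC and 387 on the FRC array, and 59.7%, 60.1% and 60.5% of probes were well above background. The scanner software's slope for the spike-in controls was 1.00 on the LEC and 0.919 on the BEC array, against 0.821 on the FRC array, which the software marked as outside its range, and values with levels divided by this slope are given where a sign turned. A gene stands for its brightest probe and is called at a difference of at least 4-fold (2 on the log2 scale). Where none of a gene's probes exceeded background on the darker array, the fold is a lower bound, because that array is set at its lowest well-above-background value or at the probe's own value if higher.

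The sort labels could be set against marker genes. All 6 fibroblast markers were at least 4-fold lower in LEC, and likewise in BEC, than in FRC. LEC exceeded FRC by 4-fold or more for all 6 lymphatic markers, and exceeded BEC so for 5 of 6. BEC exceeded each other population by 4-fold or more for all 6 blood endothelial markers. Against FRC, all 6 lymphatic markers were called up in BEC, 3 of them as bounds. In LEC, 5 of the 6 blood endothelial markers were called up against FRC and 1 down. Fibroblast marker intensities, in units of the 75th percentile, summed to 146 in LEC, 40.2 in BEC and 2206 in FRC. Lymphatic ones summed to 215, 20.0 and 1.01, and blood endothelial ones to 55.9, 604 and 37.9. The part of carry-over between sorted populations in the family's levels was not tested. Of the genes behind the sort, Pecam1 (CD31) had levels of 2.33 in LEC, 4.02 in BEC and -4.06 in FRC, and Pdpn (gp38) had -1.19, -3.81 and -0.83. Transcripts of the markers sorted against were also well above background on every array, by the probe that stands for each gene. For Ptprc, which has 4 probes, no other probe was well above background on any array, so its values rest on 1 probe. Ptprc (CD45) had levels of -1.57 in LEC, 0.23 in BEC and -2.36 in FRC, and Cd24a had 3.40, 3.89 and 1.61, so that BEC exceeded FRC 6.04-fold and 4.86-fold. Their part in the family's BEC levels was not tested. Transcripts of other cell types were present as well, and their summed intensities, in units of the 75th percentile, are given here. For 8 B cell and T cell genes the sum was 4.73 in LEC, 11.6 in BEC and 2.65 in FRC. The sum for 8 myeloid genes was 16.2 in LEC, 19.2 in BEC and 9.08 in FRC, with Itgam not well above background on any array. Such sums are weighted to the brightest genes, here in BEC Cd74, with levels of 2.43 in LEC, 3.79 in BEC and 1.48 in FRC. Of 7 myeloid genes compared between LEC and BEC, 6 were higher in LEC and 1 was lower. For 5 adipocyte genes the sum was 4.55 in LEC, 19.5 in BEC and 2.77 in FRC, with Lep not well above background on any array.

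Across the family, blood endothelium carried the highest level of 7 of the 10 genes (Notch3, Notch4, Dll1, Dll4, Jag2, Mfng and Hey1), although Notch3 was level between BEC and FRC. Lymphatic endothelium carried the highest level of Notch1, Notch2 and Jag1, and FRC carried the highest level of none. Some of these ranks rest on small gaps. Notch2 in LEC minus FRC was 0.33, and -0.20 with levels divided by the spike-in slope, where FRC was the highest. For Notch3, FRC was the highest in 3 of 8 other settings. Jag1 in LEC minus BEC was 0.22, with a lowest value of 0.02. How many of all genes were highest in each population was not counted. In LEC over FRC, 5 genes were at least 4-fold higher (Notch1, Notch4, Dll1, Jag2 and Mfng) and Notch3 was at least 4-fold lower. Of all 18443 genes compared, 4.89% were called higher in LEC and 5.93% lower. In BEC over FRC, 6 genes were called higher (Notch4, Dll1, Dll4, Jag2, Mfng and Hey1) and Notch2 lower, against 6.58% higher and 7.57% lower among 18833 genes. In LEC over BEC, Notch2 was called higher and 5 genes were called lower (Notch3, Notch4, Jag2, Mfng and Hey1), against 3.39% higher and 3.38% lower among 18324 genes. Taken over the 10 genes, the median log2 difference was 1.81 between LEC and FRC, 2.90 between BEC and FRC and -1.60 between LEC and BEC, where the medians of all compared genes were 0.02, 0.09 and -0.07. The comparisons of LEC and of BEC with FRC use the same FRC array, so their agreement in sign is not independent. In sorted bulk RNA, fewer cells carrying a transcript and less of it per cell cannot be told apart.

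**Figure D1:**
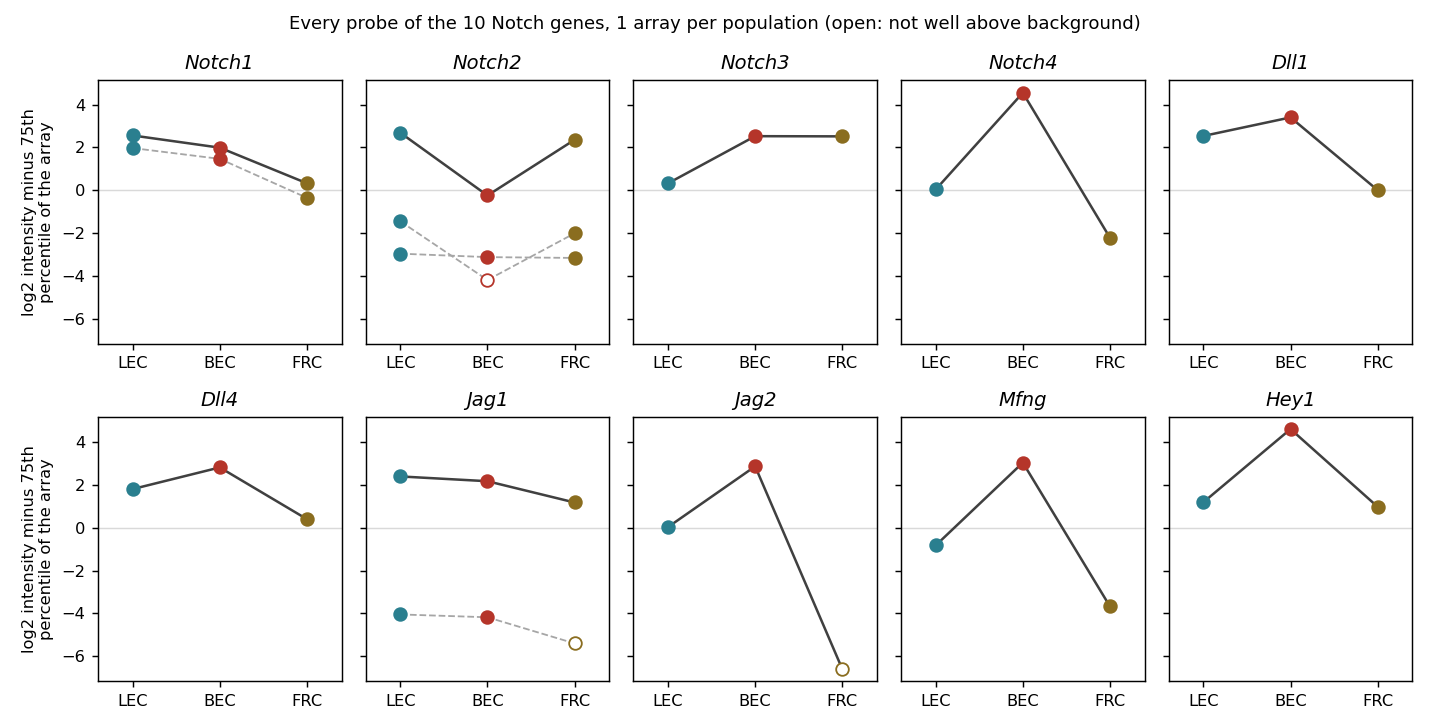
Level of every probe of the 10 genes (log2 intensity minus the array's 75th percentile, vertical axis) on the LEC, BEC and FRC arrays, 1 point per probe and array, with a solid line for the probe that stands for the gene, dashed lines for its other probes and an open symbol where the probe was not well above background. Notch4, Mfng and Hey1 stand apart on the BEC array, Notch2 is low there, and Jag2 is not well above background on the FRC array.

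Among the receptors, Notch4, a receptor known mainly from vascular endothelium, separated the populations most. Its processed intensity was 276 in LEC, 8439 in BEC and 83.7 in FRC, or levels of 0.04, 4.55 and -2.21. The BEC array thus stood far above both others, and LEC lay between BEC and FRC. Against FRC, Notch4 was up 4.76-fold in LEC and 108-fold in BEC, and LEC was 22.7-fold below BEC. It ranked 58 from the top of 18833 genes in BEC over FRC. The LEC over FRC call ended with normexp background correction, where the log2 difference was 1.66. Its probe lies on chr17:34725120-34725179 of mouse build mm9 (+ strand). The exon or untranslated region under each probe was not determined, since no mm9 annotation was used here. The opening 30 bases of the Notch4 probe show what was measured.
Notch4 probe: gttgatttcgagaatccctaaactctggaa

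Notch1, the receptor of T cell fate and of vessel sprouting, was higher in both endothelia than in FRC. The probe that stands for it read intensities of 1577 in LEC, 1433 in BEC and 486 in FRC, or levels of 2.56, 1.99 and 0.33. Over FRC this was 4.68-fold for LEC and 3.16-fold for BEC, while LEC over BEC was 1.48-fold. A neighbouring Notch1 probe was spotted 10 times per array, which gives the spread between spots of 1 hybridisation, not between animals. Its spots ranged over intensities of 993 to 1107 in LEC, 953 to 1076 in BEC and 291 to 324 in FRC, where 1 spot was left out for an outlier mark. The LEC and BEC spots overlapped before scaling, and both lay wholly above the FRC spots. Its log2 differences, 2.32 between LEC and FRC, 1.81 between BEC and FRC and 0.50 between LEC and BEC, were close to the 2.23, 1.66 and 0.57 of the other. The probes sit side by side on chr2:26314830-26314889 and chr2:26314772-26314830 of mm9 (- strand) and share 1 base of the genome. A 30-base stretch of each is shown, with the polyadenylation-signal hexamer AATAAA in capitals, because it marks where messengers are cleaved and tailed.
Notch1 probe that stands for the gene: tatgtacttttattttccacagaaacactg
Notch1 probe spotted 10 times: ctgttccaagaaAATAAActagttctcaga

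Notch2, a receptor with broad roles in mesenchyme and B cells, ran the other way in blood endothelium. Its brightest probe read 1719 in LEC, 305 in BEC and 1980 in FRC, or levels of 2.68, -0.24 and 2.36. BEC was the low array, 6.05-fold below FRC, and LEC was 7.58-fold above BEC, while LEC and FRC differed by 0.33 on the log2 scale, or by -0.20 with levels divided by the spike-in slope. The gene has 3 probes, whose transcript positions start at bases 7420, 9058 and 10129. The middle probe, at intensities of 98.3 in LEC, 19.9 in BEC and 96.4 in FRC, was not well above background in BEC, so it gives no exact fold there. At its own values BEC minus FRC was -2.18 and LEC minus BEC was 2.73, and with normexp they were -0.73 and 1.18. The probe farthest upstream, at 34.6 in LEC, 41.7 in BEC and 43.5 in FRC, was well above background on every array, and its BEC minus FRC was 0.04 and its LEC minus BEC 0.16. The probes therefore disagree, and with the mean over probes BEC minus FRC was -1.58 and LEC minus BEC was 1.94, both short of 4-fold. On mm9 (+ strand) the probes lie at chr3:97951205-97951264, chr3:97952843-97952902 and chr3:97953914-97953973, and their opening bases are given in that order because the result turns on which is read.
Notch2 probe at base 7420: cccagagtctcctgaccaatggtcaagctc
Notch2 probe at base 9058: tctgtggtaatctaggatgatagttttctc
Notch2 probe at base 10129: ccacttgaagtcttgcatagaaatgaacca

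Notch3, the receptor of vascular smooth muscle and pericytes, was low in lymphatic endothelium. Its intensity was 336 in LEC, 2077 in BEC and 2212 in FRC, or levels of 0.33, 2.52 and 2.52. LEC was 4.56-fold below FRC and 4.59-fold below BEC, and BEC and FRC differed by 0.01 on the log2 scale. The sign of that small difference turned under quantile normalization, the deposited matrix values and division by the spike-in slope, with a lowest value of -0.32. A list of 12 mural cell genes that includes Notch3 was measured alongside, and all 12 were well above background on every array. Their summed intensity, in units of the 75th percentile, was 77.7 in LEC, 141 in BEC and 119 in FRC. The single genes moved in different directions. Mcam had levels of 2.57 in LEC, 5.37 in BEC and -0.57 in FRC, and Abcc9 had -2.62, -1.97 and 2.18. By its brightest probe Rgs5 had 1.35 in LEC, -1.0 in BEC and 1.19 in FRC. Its other probe, well above background on every array, had -1.15, -0.61 and -1.48, so the Rgs5 probes disagree. Whether mural cells in a sorted population had a part in the Notch3 levels was not tested. The probe lies on chr17:32257848-32257907 of mm9 (- strand).

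All 4 ligands had a positive difference in LEC minus FRC and in BEC minus FRC, which share the FRC array. Among all compared genes 9448 of 18443 and 10307 of 18833 were positive. Jag2, a Jagged ligand found on endothelium and epithelium, had the greatest differences of the 4 ligands. Its intensity was 274 in LEC, 2619 in BEC and 4.03 in FRC, where the spot was not well above background. The gene was thus measured in both endothelia, and only a bound can be given against FRC, of at least 20.7-fold for LEC and at least 147-fold for BEC. LEC was 7.10-fold below BEC, at levels of 0.03 and 2.86. In the other settings the LEC minus FRC value of Jag2 lay between 2.63 and 6.62 and the BEC minus FRC value between 5.27 and 9.45 on the log2 scale, always past the threshold. The Jag2 probe lies on chr12:114146887-114146946 of mm9 (- strand), and opens as follows.
Jag2 probe: ttgtataaattattcaacggctgtcaggcg

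Dll1, a Delta-like ligand needed for marginal zone B cells in the spleen, was graded over the 3 populations. Its single probe was spotted 10 times on each array. Spot intensities ran from 1456 to 1616 in LEC (median 1566), from 3599 to 4074 in BEC (median 3860) and from 350 to 414 in FRC (median 399), with no overlap between arrays. The SD between spots was 0.05 in LEC, 0.06 in BEC and 0.08 in FRC on the log2 scale. After scaling the levels were 2.53 in LEC, 3.40 in BEC and 0.01 in FRC. Over FRC, Dll1 was up 5.76-fold in LEC and 10.5-fold in BEC, and LEC was 1.82-fold below BEC, a gap of -0.86 that exceeds the spot SD but has no replicate arrays behind it. The probe lies on chr17:15504623-15504682 of mm9 (- strand).

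**Figure D2:**
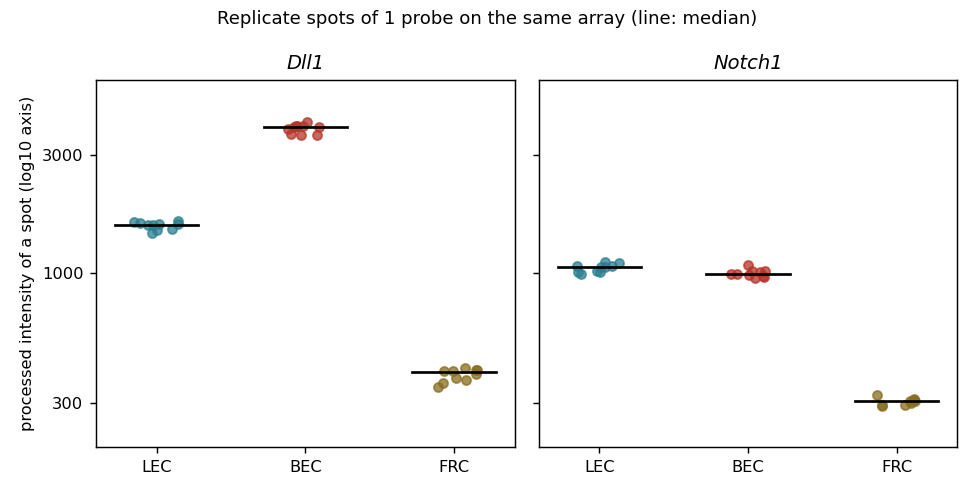
Processed intensity (log axis) of every kept spot of the Dll1 probe and of the Notch1 probe spotted 10 times, by array (LEC, BEC, FRC). In these intensities, not scaled between arrays, the Dll1 spots form 3 separate bands, while the LEC and BEC spots of Notch1 overlap above those of FRC.

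Dll4, the Delta-like ligand of arterial cells and sprouting tips, had the same order at smaller size. Its intensity was 933 in LEC, 2529 in BEC and 510 in FRC, or levels of 1.80, 2.81 and 0.40. BEC was 5.31-fold above FRC, LEC was 2.64-fold above FRC and short of the threshold, and LEC was 2.01-fold below BEC. The probe lies on chr2:119160779-119160838 of mm9 (+ strand).

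Jag1, a Jagged ligand used by endothelium, smooth muscle and stroma, varied least. The probe that stands for it read 1403 in LEC, 1620 in BEC and 873 in FRC, or levels of 2.39, 2.17 and 1.18. Neither endothelium reached 4-fold over FRC, at 2.32-fold for LEC and 1.99-fold for BEC, and LEC over BEC was 1.17-fold. A probe whose start lies 1509 bases nearer the transcript's beginning read 16.2 in LEC, 19.9 in BEC and 9.19 in FRC, where it was not well above background, so that probe gives no fold against FRC. The probes lie at chr2:136907433-136907492 and chr2:136908942-136909001 of mm9 (- strand).

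Mfng, Manic fringe, extends O-fucose sugars on Notch receptors and so shifts which ligands they answer to. Its intensity was 151 in LEC, 2951 in BEC and 30.4 in FRC, or levels of -0.82, 3.03 and -3.67, all well above background. Like Notch4, it was high on the BEC array and lowest on the FRC array. Over FRC, Mfng was up 7.19-fold in LEC and 104-fold in BEC, where it ranked 63 of 18833 genes, and LEC was 14.5-fold below BEC. With normexp correction LEC minus FRC was 1.64, short of the threshold. B cells also express Mfng, and among the lymphocyte genes Cd79b, a subunit of the B cell receptor, had levels of 1.23 in LEC, 2.79 in BEC and -0.81 in FRC. The part of lymphocyte transcripts in the Mfng values was not tested. The probe, on chr15:78586553-78586612 of mm9 (- strand), opens as follows.
Mfng probe: atggacctagactttagaagcccagaaggc

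Hey1, a transcriptional repressor induced by Notch in arteries, had its high level on the BEC array. Its intensity was 611 in LEC, 8734 in BEC and 760 in FRC, or levels of 1.19, 4.60 and 0.98. BEC stood 12.3-fold above FRC, LEC stood 10.6-fold below BEC, and LEC and FRC differed by 1.16-fold, a gap that disappeared when levels were divided by the spike-in slope. The probe lies on chr3:8663432-8663491 of mm9 (- strand).
Hey1 probe: gatttgggctctaaaagtattgttttacag

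**Figure D3:**
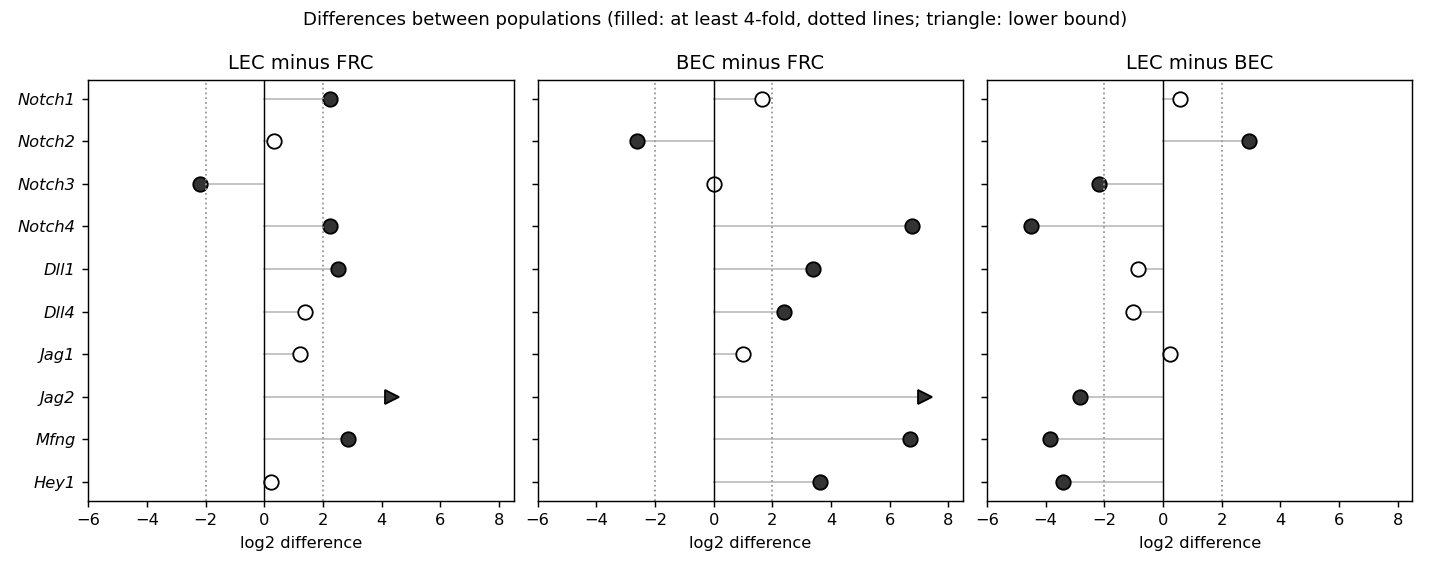
Log2 differences of the 10 genes between LEC and FRC, BEC and FRC, and LEC and BEC, with the 4-fold threshold marked and Jag2 drawn as a bound against FRC. The largest BEC minus FRC values are those of Jag2 (at least 7.20), Notch4 (6.76) and Mfng (6.70), and Notch2 alone is called lower there.

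The shape of each gene over the 3 arrays was set against all others. Likeness was taken as the Euclidean distance between a gene's 3 log2 levels after centring on their mean, over the 15596 genes well above background on all arrays, which leaves out Jag2. The closest pair of members was Notch4 and Mfng at 0.51, followed by Notch1 and Jag1 at 0.73 and Dll1 and Dll4 at 0.87. The genes nearest to Mfng were Vwf (von Willebrand factor) at 0.04, Fut7 at 0.11 and Thrsp at 0.12. Nearest to Notch4 were Tcim at 0.18, Rgcc at 0.35 and Fam167b at 0.36. Within 0.5 of Mfng lay 8 genes, and within 0.5 of Notch4 also 8. Levels were centred but not scaled, so these counts depend on the size of a gene's differences as well as on shape. For Hey1 the nearest genes were Tbx3, Nxpe4 and Rasgef1a, with 34 genes within 0.5, and for Notch3 they were Lysmd2, Msx1 and S100a1, with 49. For Notch2 they were Tnrc18, Gdf10 and Prss3 (87 genes within 0.5), for Dll1 Ggta1, Tbkbp1 and Itga3 (91), for Notch1 Ccnd1, Adam10 and Pf4 (221), and for Dll4 9530083O12Rik, Specc1 and Kcnn4 (244). Jag1 had 1606 genes within 0.5, too many for its nearest genes to be named. The 3 values per gene describe a shape and show no relation between genes.

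Other pathway genes were read as a list. Of 61 further pathway genes 59 were on the array. In LEC over FRC, 6 of 52 compared genes were called higher and 3 lower, with a median of 0.26. In BEC over FRC, 5 of 52 were called higher and 3 lower, with a median of 0.36. In LEC over BEC, 2 of 51 were called higher and 3 lower, with a median of -0.10. The shares of all genes were 4.89% higher and 5.93% lower, 6.58% and 7.57%, and 3.39% and 3.38% in these comparisons, so several of the counts lie near the share over all genes.

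**Figure D4:**
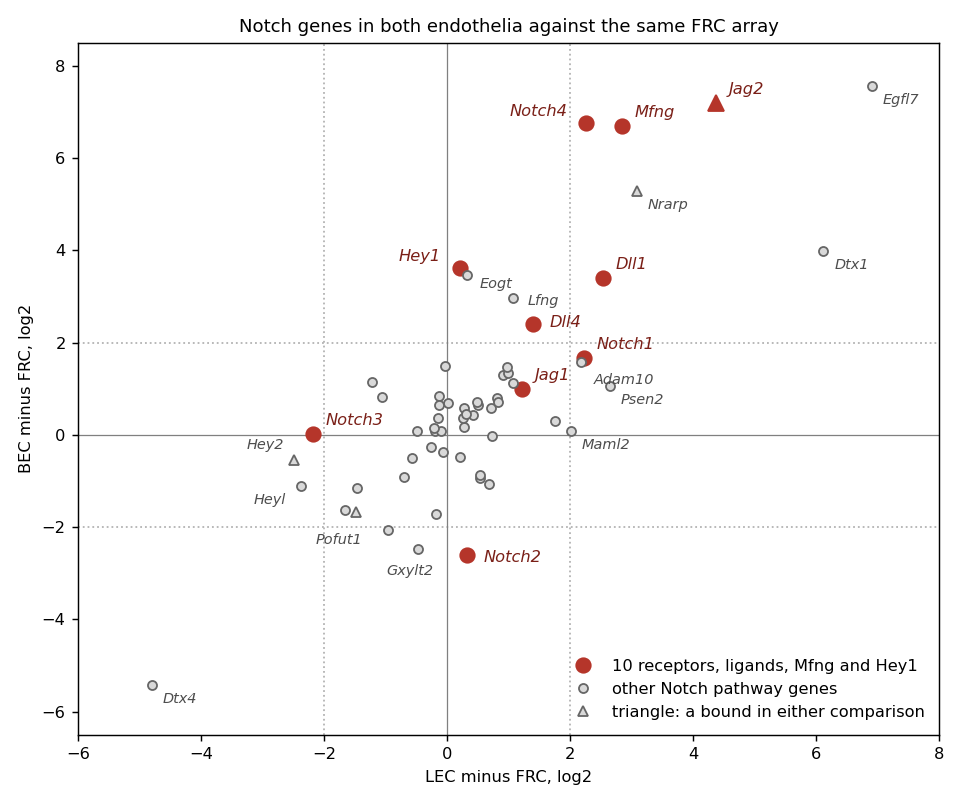
LEC minus FRC (horizontal) against BEC minus FRC (vertical), both log2 and both using the same FRC array, for the 10 genes in red and the other pathway genes in grey, with dotted lines at 4-fold and triangles for bounds. Notch4, Mfng, Jag2 and Hey1 lie high on the vertical axis, and most other pathway genes lie near the origin.

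Among ligand-like proteins, Egfl7, a protein secreted by endothelial cells, had levels of 7.22 in LEC, 7.87 in BEC and 0.31 in FRC, or 120-fold over FRC in LEC and 188-fold in BEC. Dlk1, a noncanonical ligand, ran the other way, with -3.20 in LEC, -2.87 in BEC and -1.72 in FRC, or 2.78-fold below FRC in LEC and 2.21-fold in BEC, and its other probe gave log2 differences of -3.31 and -3.67. Dlk2 stayed within 0.27 of FRC in both endothelia, and Dll3 and Dner were not well above background. Of the enzymes that glycosylate the receptors, Lfng, the fringe related to Mfng, stood 2.11-fold over FRC in LEC and 7.82-fold over FRC in BEC. Eogt, which adds O-GlcNAc to Notch, had -1.93 in LEC, 1.20 in BEC and -2.26 in FRC. The BEC array was thus the high one. Pofut1, which adds the O-fucose that fringes extend, was 4.18-fold lower in BEC than in FRC by the probe that stands for it, but its other probe gave a log2 difference of -1.0. Gxylt2, a xylosyltransferase, was 5.59-fold lower in BEC than in FRC and 4.03-fold higher in LEC than in BEC. Of the ubiquitin ligases that help ligands into endocytosis, Neurl1b had 1.39 in LEC, 3.77 in BEC and 2.63 in FRC, while Mib1 had 3.01, 3.03 and 2.59.

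Of the 9 cleavage genes compared, Adam10 and Psen2 were called higher in LEC than in FRC, as were 4.89% of all genes. Psen2, a catalytic presenilin of γ-secretase, had levels of 6.14 in LEC, 4.56 in BEC and 3.49 in FRC. Adam10, the sheddase that makes the ligand-dependent receptor cleavage, had -1.87, -2.48 and -4.05. Its FRC level lies near the lowest value well above background on that array, -4.34, so its call rests on a dim value. In the nuclear complex, Rbpj had 0.50 in LEC, 0.52 in BEC and 2.16 in FRC, and so was lower in both endothelia without reaching 4-fold. The coactivator Maml2 exceeded FRC 4.04-fold in LEC by its brightest probe, where a second probe gave 0.89 on the log2 scale and a further one was not well above background in BEC or FRC. No corepressor among the 5 measured was called in any comparison. The shares of all genes called higher or lower ran from 3.38% to 7.57%, so for 5 genes the lack of a call lies near those shares.

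Of 9 measured genes that damp or turn over the signal, 3 were called in either comparison with FRC, where 4.89% of all genes were higher and 5.93% lower in LEC, and 6.58% and 7.57% in BEC. Dtx1, a Deltex ubiquitin ligase, had 5.03 in LEC, 2.89 in BEC and -1.09 in FRC, or 69.3-fold over FRC in LEC, 15.7-fold over FRC in BEC and 4.41-fold over BEC in LEC. Dtx4 ran the other way, with -1.07 in LEC, -1.70 in BEC and 3.73 in FRC, 27.9-fold below FRC in LEC and 43.0-fold below FRC in BEC. Members of the Deltex family thus differed in direction. Nrarp, a feedback inhibitor induced by Notch, had -1.25 in LEC and 0.95 in BEC and was not well above background in FRC, so over FRC it was at least 8.47-fold up in LEC and at least 39.1-fold up in BEC. LEC was 4.61-fold below BEC for Nrarp.

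The other Hes and Hey genes had smaller differences in BEC over FRC than Hey1. Of 9 listed, 6 could be compared and none was called higher in either endothelium than in FRC. Among all genes 4.89% were called higher in LEC and 6.58% in BEC, so for 6 genes the lack of a call lies near those shares. Lower than FRC were 2 in LEC and 0 in BEC, against 5.93% and 7.57% of all genes. Hes1, the widely used target, had 2.14 in LEC, 2.50 in BEC and 1.15 in FRC. Hes6 had 1.51 in LEC, 1.74 in BEC and 1.03 in FRC, and Hes5 had -2.86, -2.37 and -3.84. Heyl was 5.23-fold lower in LEC than in FRC. Hey2 was not well above background in LEC, at least 5.64-fold below FRC, and had -2.25 in BEC and -1.70 in FRC.

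Genes linked with arterial and with venous endothelium were read beside the family. The 14 arterial genes, which include Dll4, Hey1 and Hey2, had 6 called higher and 3 lower in LEC over FRC, 9 higher and 0 lower in BEC over FRC, and 1 higher and 5 lower in LEC over BEC, with medians of 1.68, 2.94 and -1.76. The 8 venous genes had 6 higher in LEC over FRC, 7 higher in BEC over FRC and 4 lower in LEC over BEC, with medians of 2.36, 4.26 and -2.45, and 0 in each other direction. Among all genes the shares called higher and lower were 4.89% and 5.93%, 6.58% and 7.57%, and 3.39% and 3.38% in the same 3 comparisons. Direction differed between genes of the arterial list. Unc5b, a netrin receptor, had levels of 2.92 in LEC, 0.21 in BEC and -0.68 in FRC, and was 6.58-fold higher in LEC than in BEC. Efnb2, the ephrin ligand of arterial cells, had 3.86 in LEC, 2.71 in BEC and -1.29 in FRC. Sox17, an arterial transcription factor, had -0.14 in LEC, 4.84 in BEC and -3.47 in FRC. Gja5, a gap-junction protein of arteries, had -1.78, 1.52 and -1.62 by the probe that stands for it. Its other probe, well above background on every array, had -2.96 in LEC, -2.94 in BEC and -2.80 in FRC, so the Gja5 probes disagree. Ackr1, a receptor of venules, had 2.37 in LEC, 5.30 in BEC and 1.34 in FRC.

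Promoters of the family were read from RefSeq sequences on build GRCm38.p6, from 250 bases before to 50 after each transcript start. The table matched 8 of the 10 genes with 9 promoters, and Hey1 and Mfng were not among them. The letters searched on both strands were TGGGAA, the core of RBPJ sites, its longer form CGTGGGAA, which contains the shorter by construction, and GGAAG, a core of ETS-factor sites. TGGGAA occurred in 0 of the 9 promoters, and in 25.6% of all 32851 promoters of this length. GGAAG occurred in 5 of 9, and in 71.4% of all. The Notch4 promoter held 4 copies of GGAAG, and 6.04% of all promoters hold 4 or more. The Dll4 promoter held 2, and 37.9% of all hold 2 or more. The Jag2 promoter held none and was 86.0% G and C. Of 7 target genes 5 were in the table. Hey2 held 2 copies of CGTGGGAA, a number reached by 4 of all 32851 promoters (0.0122%), and Hes5 held 2 of TGGGAA, where 3.79% hold 2 or more. The promoters of Hes6, Nrarp and Dtx1 held 0 copies of either. A match describes letters and is no evidence of binding. The promoters of Notch4 (chr17:34564045-34564344, + strand), Dll4 (chr2:119325534-119325833, + strand) and Hey2 (chr10:30842734-30843033, - strand) are shown 5′ to 3′, with GGAAG on either strand in capitals in Notch4 and Dll4, and CGTGGGAA on either strand in Hey2.
Notch4 promoter: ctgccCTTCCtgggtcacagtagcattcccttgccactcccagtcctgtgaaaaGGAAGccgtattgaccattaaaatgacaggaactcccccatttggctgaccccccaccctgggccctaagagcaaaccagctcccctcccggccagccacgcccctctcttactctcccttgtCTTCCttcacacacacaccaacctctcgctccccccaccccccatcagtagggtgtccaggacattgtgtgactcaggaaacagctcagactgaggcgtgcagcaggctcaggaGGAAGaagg
Dll4 promoter: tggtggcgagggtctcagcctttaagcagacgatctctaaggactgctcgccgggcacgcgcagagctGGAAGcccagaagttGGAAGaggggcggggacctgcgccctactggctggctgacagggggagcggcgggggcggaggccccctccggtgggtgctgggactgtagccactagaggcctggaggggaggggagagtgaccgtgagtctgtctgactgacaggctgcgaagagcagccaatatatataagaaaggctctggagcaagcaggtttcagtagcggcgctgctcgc
Hey2 promoter: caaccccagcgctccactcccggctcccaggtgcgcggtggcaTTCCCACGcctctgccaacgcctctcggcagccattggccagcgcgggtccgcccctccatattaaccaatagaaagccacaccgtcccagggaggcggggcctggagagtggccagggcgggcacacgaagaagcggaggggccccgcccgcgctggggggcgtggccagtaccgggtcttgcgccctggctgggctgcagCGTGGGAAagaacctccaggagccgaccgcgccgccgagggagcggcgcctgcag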

How the data were processed

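Per the file headers, the authors scanned the arrays and took spot intensity with Agilent Feature Extraction 10.7.3.1, which subtracted background and corrected spatial trends within each array. The deposited spot intensities of the scanner software were not scaled between arrays, unlike the deposited matrix described below. The deposited flags of 0 or 1 are the scanner software's. Amplified cRNA was made from the RNA in 1 round, per the labels' protocols, and coupled to a dye. Control spots and spots with outlier flags were left out here, and 41156 of 41174 probes were kept. Spots of a probe were averaged as log2 and each array's 75th percentile was subtracted. Gene names come from the files, updated for 26690 probes by accession. The comparison step was tested on simulated data.

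Named were all 10 genes with every probe, pathway genes at least 4-fold apart or the brightest 2 of a list, up to 6 genes of each other list at least 4-fold apart, and the 3 genes nearest in pattern. The members and lists were chosen with earlier results of these data known. Alternatives were median and quantile scaling, normexp correction (limma 3.58.1 in R 4.3.3, offset 50), the deposited matrix, no filter on dim probes, the mean over probes, outlier spots kept, division by the spike-in slope and a 2-fold threshold. The matrix values, stated without scale, have a floor of 15 and a median of 40.2 in every column. Their sorted columns differ by at most 0.943, as columns do after quantile scaling. The matrix and quantile alternatives gave nearly the same values, for Dll1 in BEC minus FRC 3.299 and 3.301, so they are not separate checks. Array number limits precision.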

Additional observations from a re-analysis of the deposited data

How the results depend on the processing

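No paired analysis was possible because each population has 1 array. Over 8 alternatives, of which quantile scaling and the deposited matrix gave nearly the same values, 27 of 30 differences of the 10 genes kept their sign. Their call was kept by 26, and no called difference changed sign. The exceptions in sign were small: Notch3 in BEC minus FRC (lowest -0.32), and Notch2 (-0.20) and Hey1 (0.00 after rounding) in LEC minus FRC, the last 2 with the spike-in slope. With the mean over probes, 0 of the 10 genes were called lower in BEC over FRC and 0 higher in LEC over BEC, since Notch2 was then at -1.58 and 1.94. With normexp, 3 of the 10 were called higher in LEC over FRC, without Mfng (1.64) and Notch4 (1.66), and the pathway genes called were 3 higher and 1 lower there and 1 higher in LEC over BEC. With the spike-in slope, 8 pathway genes were called higher and 5 lower in BEC over FRC and 1 higher in LEC over BEC, and median scaling also left 1 there. At 2-fold, 13 pathway genes were higher and 9 lower in BEC over FRC, 10 higher and 8 lower in LEC over BEC, and 8 lower in LEC over FRC. Among all genes in LEC over FRC, BEC over FRC and LEC over BEC, normexp called 554, 747 and 289 higher and 639, 861 and 325 lower, the slope 1376, 1675 and 774 higher and 1391, 1627 and 672 lower, no filter on dim probes 1227, 1655 and 1019 higher and 1438, 1936 and 875 lower, and 2-fold 2397, 3157 and 2009 higher and 2460, 3105 and 1863 lower. The cause of these changes was not tested. By the probe that stands for each gene, background limits Jag2 in FRC, and the lack of replicate arrays limits every value: no spread between animals is known.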
